A study of Homo sapiens with 9 samples.

Results

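RAB proteins are small GTPases that mark the membranes of the secretory and endocytic routes. The RAB genes described here are the rows of the authors' gene table whose symbol is RAB followed by a number and at most a letter and a digit, which gave 62 of 17492 genes. The rule read symbols and no measured value, and it leaves out RAB-like genes, RAN and the regulators of RAB proteins. Of the 62, 52 passed a filter on low counts and were tested, and 10 did not pass it. RNA was sequenced from HCCLM3, a highly metastatic human liver cancer cell line, which the labels give as wild type in all groups. The 9 libraries form 3 groups of 3: cells given the solvent DMSO (control), cells given 50 µM of quercetin and cells given 100 µM of quercetin, a plant flavonol. All libraries are from a single cell line, and no exposure time is stated in the sources used here. The labels do not tie the replicates to separate cultures, so the p-values measure the spread between these libraries, which may be technical.

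A RAB protein switches between a GTP-bound form that sits on a membrane and binds effectors, and a GDP-bound form that is held in the cytosol by a GDP dissociation inhibitor. Exchange factors (GEFs) load GTP and set where the protein acts, GTPase-activating proteins (GAPs) end the active state, and prenyl groups anchor the protein in the membrane. Effectors are motors, tethers and adaptors that move and dock vesicles. In liver cells these routes carry plasma proteins to the surface, take up lipoproteins and receptors, and feed lysosomes and lipid droplets.

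Start-site windows from 250 bases before to 50 bases after the first listed start were taken from RefSeq (GRCh38.p14) for 49 of the 62 genes. They were searched on both strands for 6 short motifs, and overlaps between motifs were allowed. The core of the xenobiotic response element, GCGTG, was in 20 of the 49 windows (40.82%), against 36.33% of 27305 windows of all genes. The hypoxia response core ACGTG was in 15 of 49 (30.61%), against 21.61% of all windows, and the E-box CACGTG, which contains it, in 6 of 49 (12.24%), against 7.435%. The CCAAT box was in 13 of 49 (26.53%), against 35.7%. An AP-1 site, TGACTCA or TGAGTCA, was in 3 of 49 (6.122%), against 4.922%. The GC box GGGCGG was in 39 of 49 (79.59%), against 44.59%, and the median G and C share of the windows was 65% for RAB genes, against 58.33% for all genes. The windows are shown for the RAB genes that passed the test in both quercetin groups and had an entry. Capitals mark GCGTG and CCAAT on either strand. The RAB27B window is chr18:54717607-54717906 on the plus strand. The RAB7B window is chr1:206003346-206003645 on the minus strand. The RAB10 window is chr2:26033834-26034133 on the plus strand. The RAB40B window is chr17:82698649-82698948 on the minus strand.
RAB27B: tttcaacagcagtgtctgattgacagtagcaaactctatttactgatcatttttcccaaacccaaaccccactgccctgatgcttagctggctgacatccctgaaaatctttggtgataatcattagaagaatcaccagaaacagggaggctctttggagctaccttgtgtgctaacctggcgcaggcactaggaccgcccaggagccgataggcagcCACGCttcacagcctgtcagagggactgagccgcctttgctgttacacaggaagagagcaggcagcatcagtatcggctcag
RAB7B: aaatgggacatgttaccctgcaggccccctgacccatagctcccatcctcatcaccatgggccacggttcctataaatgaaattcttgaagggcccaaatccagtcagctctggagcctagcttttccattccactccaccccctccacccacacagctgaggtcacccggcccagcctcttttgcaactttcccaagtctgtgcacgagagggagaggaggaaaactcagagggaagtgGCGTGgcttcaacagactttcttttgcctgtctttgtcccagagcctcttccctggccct
RAB10: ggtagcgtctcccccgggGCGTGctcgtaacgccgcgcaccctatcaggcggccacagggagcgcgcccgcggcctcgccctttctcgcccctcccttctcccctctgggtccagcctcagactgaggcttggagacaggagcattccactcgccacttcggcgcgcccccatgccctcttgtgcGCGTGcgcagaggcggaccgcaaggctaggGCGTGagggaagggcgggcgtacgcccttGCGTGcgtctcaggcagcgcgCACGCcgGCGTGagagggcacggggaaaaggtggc
RAB40B: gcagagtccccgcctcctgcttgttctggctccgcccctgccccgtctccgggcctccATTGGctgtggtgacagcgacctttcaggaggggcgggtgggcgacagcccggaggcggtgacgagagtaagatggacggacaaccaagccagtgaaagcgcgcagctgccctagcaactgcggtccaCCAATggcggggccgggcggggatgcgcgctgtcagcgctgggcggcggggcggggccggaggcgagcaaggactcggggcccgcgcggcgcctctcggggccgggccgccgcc
The RAB10 window holds GCGTG at 6 places, the RAB27B and RAB7B windows at 1 place each, and the RAB40B window holds no GCGTG but CCAAT at 2 places. None of the 4 windows holds ACGTG. Among RAB genes past the threshold at 100 µM, described further on, GCGTG was in 5 of 11 windows: those of RAB10, RAB27B and RAB7B, which were lower, and of RAB4B and RAB8B, which were higher. It was in 13 of 31 windows of tested RAB genes that did not pass, and the RAB29 window, of a gene that was lower, holds none. Such letter matches are a description, and no binding was measured.

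The libraries held 20061136 to 21599805 counts each. The control and 100 µM groups each hold a library that stands apart. The mean chi-square per gene between replicates was 27.6 and 27.4 for control replicate 1 against the other controls, which differed from each other by 3.56. It was 83.9 and 86.1 for 100 µM replicate 3 against the other 100 µM libraries, which differed by 5.04, while the 50 µM libraries differed by 4.24 to 4.75. The RAB genes whose calls against control change when either library alone is left out are named beside the counts. Of 19 hepatocyte markers 5 (APOA1, APOC3, CYP3A4, CPS1 and ASGR1) stayed under 1 TPM, and the sum of the list, most of it KRT8 and KRT18, was 5909 to 6832 TPM in control, 5299.5 to 5441 TPM at 50 µM and 4251 to 6205 TPM at 100 µM. The sum does not describe the other members: of 14 tested with edgeR, 4 were higher and 3 lower at 50 µM, and 6 were higher and 1 lower at 100 µM, with median log2 differences of 0.31 and 0.29. Summed endothelial markers (6 genes, mostly PECAM1) were 20.0 to 22.4, 10.4 to 12.3 and 11.0 to 14.2 TPM in the same order, and summed leukocyte markers (8 genes, mostly CD68) were 185 to 258, 164 to 182 and 254 to 379 TPM. Bile duct markers (5 genes, mostly KRT19) summed to 528 to 586, 514 to 545 and 526 to 652 TPM, and fibroblast markers (8 genes, mostly LUM) to 57.7 to 87.4, 66.2 to 73.6 and 63.7 to 109.5 TPM. VWF, STAB2 and TEK, CD3E and TYROBP, and COL1A1 and COL3A1 were under 1 TPM, and no listed marker was at 0 in every library. The part of these markers in the results was not tested.

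Levels are compared between genes in TPM, which corrects for transcript length. The 4 most abundant RAB genes were RAB7A, which drives late endosomes to lysosomes, RAB13, which acts at tight junctions, RAB5C, a GTPase of early endosomes, and RAB10, which serves polarised exocytosis. RAB7A had 440.3, 574 and 570.1 TPM in the control libraries, 428, 439 and 423 TPM at 50 µM and 579, 557 and 380.1 TPM at 100 µM. RAB13 had 351, 290.1 and 321 TPM in the control libraries, 327, 312 and 316 TPM at 50 µM and 319, 331 and 369 TPM at 100 µM. RAB5C had 294, 353 and 347 TPM in the control libraries, 261, 271 and 272 TPM at 50 µM and 337, 335 and 202 TPM at 100 µM. RAB7A and RAB5C were lowest at 100 µM in replicate 3 and lowest among controls in replicate 1, the libraries that stand apart, and RAB13 overlapped between all groups. RAB13 and RAB5C share 39.3% and 43.5% of their 50-base stretches with other annotated transcripts, so their levels are less certain. None of RAB7A, RAB13 and RAB5C passed the test against control, with log2 fold changes at 100 µM of -0.01 ± 0.14, 0.16 ± 0.11 and -0.13 ± 0.15 (SE).

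All RAB genes together made up 3782 ± 152 TPM in control, 3414 ± 57.1 TPM at 50 µM and 3573 ± 277 TPM at 100 µM (SD, n = 3). The 50 µM libraries (3354 to 3468) all lay below the control libraries (3611 to 3904), and those at 100 µM (3257 to 3771) overlapped both. The scale itself shifted: the median log2(TPM + 0.1) difference of all tested genes from control was -0.05 at 50 µM and -0.08 at 100 µM. With edgeR's scaling these medians were 0.0033 and 0.00087. How much of the lower sum at 50 µM follows from this shift, and how much from single genes, was not tested. The 4 leading genes held 35.6 to 42.9% of this sum. The 10 genes not tested were RAB17, RAB19, RAB33A, RAB40A, RAB44, RAB39B, RAB6D, RAB3C, RAB39A and RAB6C, with 0 to 12 estimated counts in any library. RAB17, an epithelial recycling GTPase, and RAB19 had the most, at 5 to 12 and 2 to 12 counts.

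**Figure D1:**
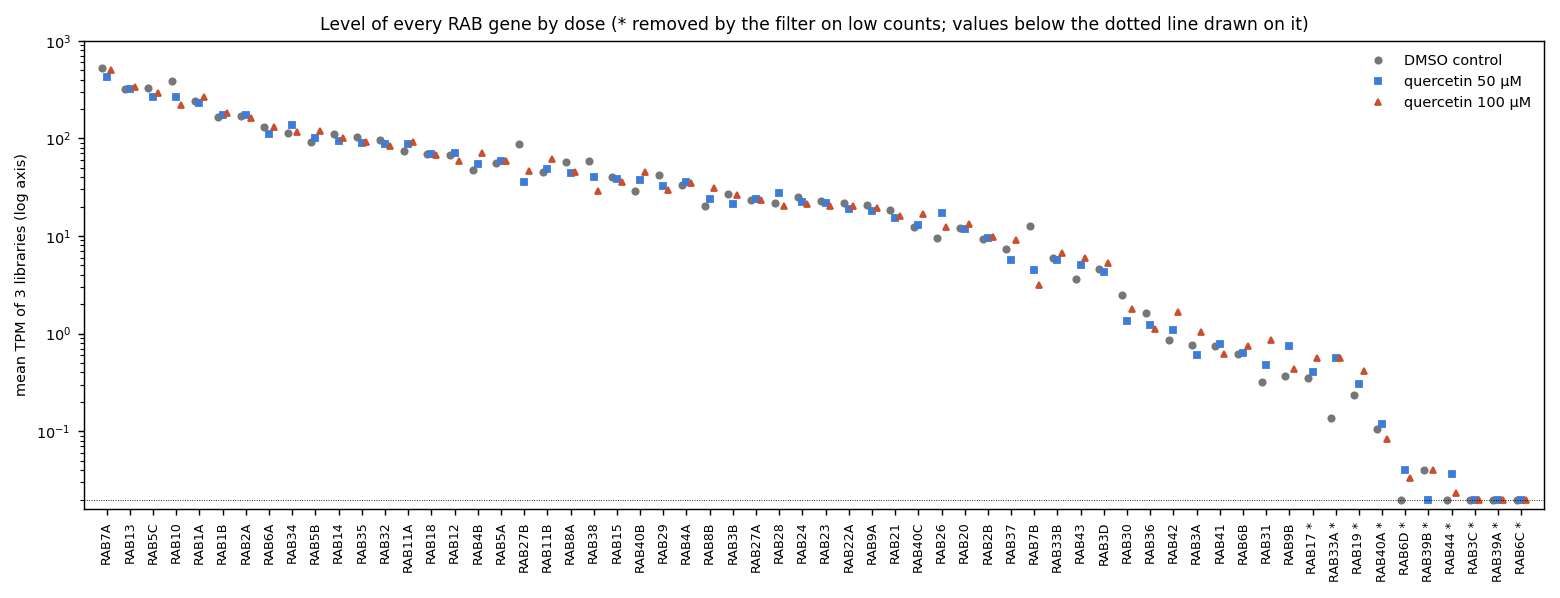
Mean TPM of 3 libraries (log axis) for each of the 62 RAB genes, ordered by their mean over all 9 libraries, with DMSO control, 50 µM and 100 µM quercetin as separate points. Levels run from RAB7A at the top to genes removed by the filter on low counts (asterisks); RAB27B, RAB38, RAB7B and RAB10 show control points above both quercetin points.

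At 100 µM, 13 of the 52 RAB genes tested passed the threshold against control (25.0%), beside 21.0% of all 12832 genes tested. The test was edgeR's quasi-likelihood F test with Benjamini-Hochberg adjustment over all genes and a threshold of 0.05. RAB31, RAB43, RAB40B, RAB8B, RAB4B, RAB11B, RAB26 and RAB5B were higher (8 genes, 15.4%, beside 10.7% of all genes), and RAB7B, RAB38, RAB27B, RAB10 and RAB29 were lower (5 genes, 9.62%, beside 10.3%). At 50 µM, 6 of 52 passed (11.5%), beside 11.6% of all genes. RAB26 and RAB40B were higher (2 genes, 3.85%, beside 5.28%), and RAB27B, RAB7B, RAB38 and RAB10 were lower (4 genes, 7.69%, beside 6.31%). The 6 genes also passed in the same direction at 100 µM, but both comparisons use the same control libraries. The other 39 RAB genes passed in no comparison with edgeR. The authors' deposited DESeq2 q-values at 50 µM were under 0.05 for the 6 and also for other RAB genes. Those were RAB11A, RAB14, RAB28, RAB29, RAB30, RAB34, RAB3B, RAB43, RAB4B, RAB5B, RAB5C, RAB8A and RAB8B. At 100 µM the deposited q-values were under 0.05 for the 13 except RAB26 (0.0955), and for no other RAB gene. The share of all genes under that q-value was not counted.

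With all libraries in the fit neither share was far from that of all genes, and the sizes were alike too. The median log2 fold change over the 52 RAB genes was 0.09 at 100 µM, against 0.00087 for all genes tested, and the median absolute value was 0.22, against 0.24. At 50 µM the medians were 0.02 for the RAB genes, against 0.0033 for all genes, and the absolute medians 0.20 and 0.23. All 3 libraries lay above every control, or all 3 lay below, for 20 RAB genes at 100 µM (38.5%, beside 35.9% of all genes). At 50 µM this held for 25 (48.1%, beside 49.0%). DESeq2 called 17 RAB genes at 100 µM (32.7%, beside 26.4% of all genes), the 13 that edgeR called and RAB11A, RAB1A, RAB1B and RAB40C. At 50 µM DESeq2 called 11 (21.2%, beside 20.0%). In a fit of the 2 groups alone, 10 of 52 RAB genes passed at 100 µM (8.08% of all genes) and 19 of 51 at 50 µM (33.9%). With limma on log2(TPM + 1) 5 RAB genes were higher and 5 lower at 100 µM, and 975 of all genes were higher and 1622 lower, against 1370 and 1322 with edgeR.

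Single libraries moved these counts. At 100 µM, 7 RAB genes passed without control replicate 3 (8.12% of all genes), where RAB11B, RAB26, RAB29, RAB31, RAB43 and RAB8B were lost, and 9 without control replicate 2 (8.62%). Without control replicate 1 it was 14 (24.5%), the 13 and RAB30. Without 100 µM replicate 3 it was 18 (29.8%), the 13 and RAB1A, RAB1B, RAB20, RAB37 and RAB3B, and without both libraries that stand apart 25 (48.6%). At 50 µM the count was 1 or 2 without any 50 µM library (0.693 to 1.31% of all genes) and 2 without control replicate 2 (0.801%) or 3 (0.90%), and RAB10, RAB38, RAB40B and RAB7B were lost each time. Without control replicate 1 it was 10 (21.9%), the 6 and RAB29, RAB30, RAB34 and RAB5B. Without 100 µM replicate 3 it was 21 (36.6%), the 6 and RAB11A, RAB14, RAB28, RAB29, RAB30, RAB34, RAB37, RAB3B, RAB43, RAB4B, RAB5B, RAB5C, RAB8A, RAB8B and RAB9B, and without both 32 (57.4%). The 100 µM library is in neither group of the 50 µM comparison. It enters there through the steps shared by all groups, which are the filter on low counts, the scaling and the spread in the fit. The parts of these steps were not tested.

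**Figure D2:**
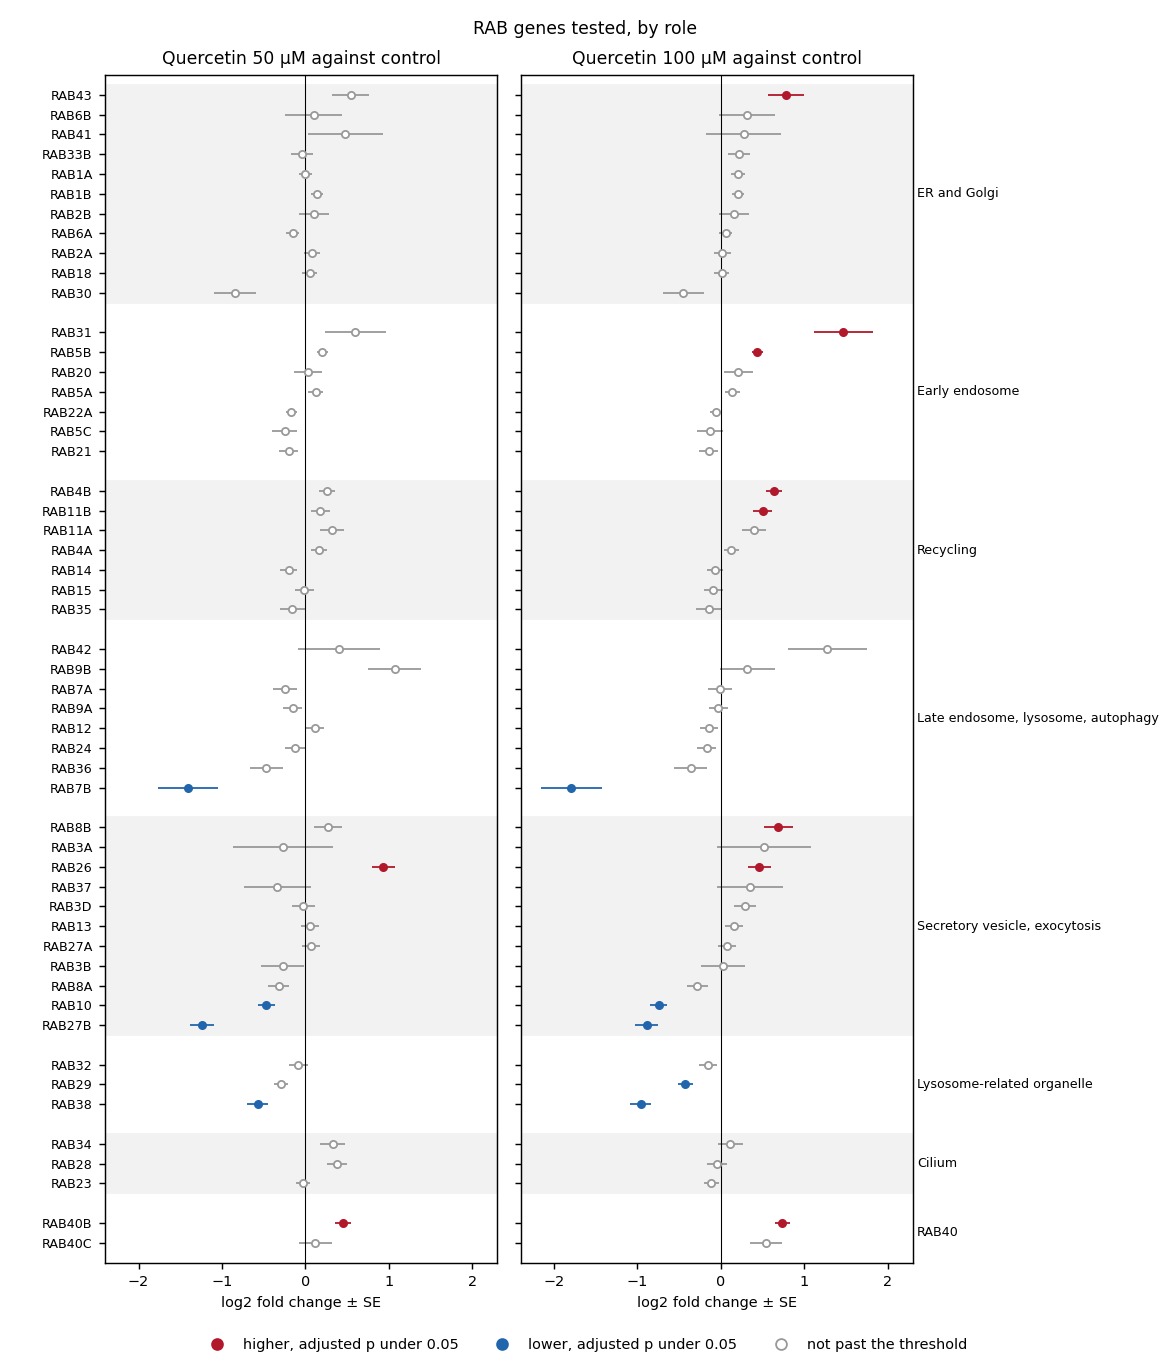
Log2 fold change ± SE against control for the 52 RAB genes tested, at 50 µM (left) and 100 µM (right), grouped by role. Filled points passed the threshold of 0.05 on the adjusted p from edgeR (red higher, blue lower): 6 genes at 50 µM and 13 at 100 µM, from RAB7B at -1.79 to RAB31 at 1.47.

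Among RAB genes of secretory vesicles and polarised exocytosis (11 tested), RAB27B and RAB10 fell and RAB26 and RAB8B rose at 100 µM, so the class moved in both directions. The edgeR counts of each class are to be read against the shares of all genes. These were 10.7% higher and 10.3% lower at 100 µM, and 5.28% and 6.31% at 50 µM. RAB27B, which docks secretory vesicles and multivesicular endosomes at the plasma membrane (chr18:54717842-54898083), had 209, 300.0 and 278 CPM in the control libraries, 122, 108 and 103 CPM at 50 µM and 158, 129 and 139 CPM at 100 µM. Every quercetin library lay below every control library, and the 50 µM libraries lay below those at 100 µM. In bulk libraries fewer cells that express a gene and less RNA per cell cannot be told apart. The level was 1.85-fold lower at 100 µM than in control (log2 -0.89 ± 0.14, edgeR adjusted p = 0.00312) and 2.36-fold lower at 50 µM (log2 -1.24 ± 0.14, edgeR adjusted p = 0.00308). Of its exons 4.59% overlap an antisense transcript, and the strand setting of the counting was not found in the labels or headers. Its paralogue RAB27A, which also serves secretion of lysosome-related organelles, had 41.9, 37.6 and 34.5 CPM in the control libraries, 37.0, 40.4 and 42.1 CPM at 50 µM and 40.0, 35.2 and 45.0 CPM at 100 µM. The RAB27A groups overlapped, with a log2 difference of 0.08 at 100 µM (95% interval -0.20 to 0.35) and 0.07 at 50 µM (-0.21 to 0.34).

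RAB10, which brings glucose transporter vesicles to the surface in mouse adipocytes (chr2:26034084-26137454), had 529, 687 and 676 CPM in the control libraries, 467, 455 and 444 CPM at 50 µM and 386, 364 and 379.8 CPM at 100 µM. The groups did not overlap, and the 100 µM libraries were the lowest. RAB10 was 1.67-fold lower at 100 µM (log2 -0.74 ± 0.10, edgeR adjusted p = 0.00182) and 1.38-fold lower at 50 µM (log2 -0.47 ± 0.10, edgeR adjusted p = 0.0217), a call at 50 µM lost in 6 of 17 alternatives. RAB26, linked to secretory granules and autophagy (chr16:2148144-2154165), had 7.81, 7.77 and 6.20 CPM in the control libraries, 12.2, 14.2 and 15.2 CPM at 50 µM and 9.28, 10.6 and 10.2 CPM at 100 µM. Here the 50 µM libraries were the highest, and those at 100 µM lay between them and the controls without overlap. RAB26 was 1.91-fold higher at 50 µM (log2 0.93 ± 0.14, edgeR adjusted p = 0.00701) and 1.38-fold higher at 100 µM (log2 0.46 ± 0.14, edgeR adjusted p = 0.0408). The call at 100 µM was lost in 12 of 17 alternatives, and the authors' deposited table gives a q-value of 0.0955 there.

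RAB8B, which carries vesicles from the Golgi and recycling endosomes to the surface (chr15:63189536-63267776), had 49.8, 43.9 and 42.5 CPM in the control libraries, 56.4, 55.7 and 51.8 CPM at 50 µM and 64.0, 58.7 and 97.1 CPM at 100 µM. All quercetin libraries lay above all controls, and 100 µM replicate 3, a library that stands apart, was far above the rest. RAB8B was 1.61-fold higher at 100 µM (log2 0.69 ± 0.17, edgeR adjusted p = 0.0203), with a log2 difference of 0.44 without that library (edgeR adjusted p = 0.00307). Its paralogue RAB8A did not pass, with -0.28 ± 0.12 at 100 µM. The regulated-exocytosis genes RAB3A, RAB3B and RAB3D, RAB37 of secretory granules and RAB13 did not pass either, and ran from 0.03 to 0.52 on the log2 scale at 100 µM. RAB37 had a log2 difference of 0.35 ± 0.39 at 100 µM in all libraries and 0.77 without 100 µM replicate 3 (edgeR adjusted p = 0.00102). RAB3B had 195, 203 and 87.2 CPM at 100 µM, and its log2 difference of 0.03 ± 0.26 became 0.34 without replicate 3 (edgeR adjusted p = 0.0260).

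**Figure D3:**
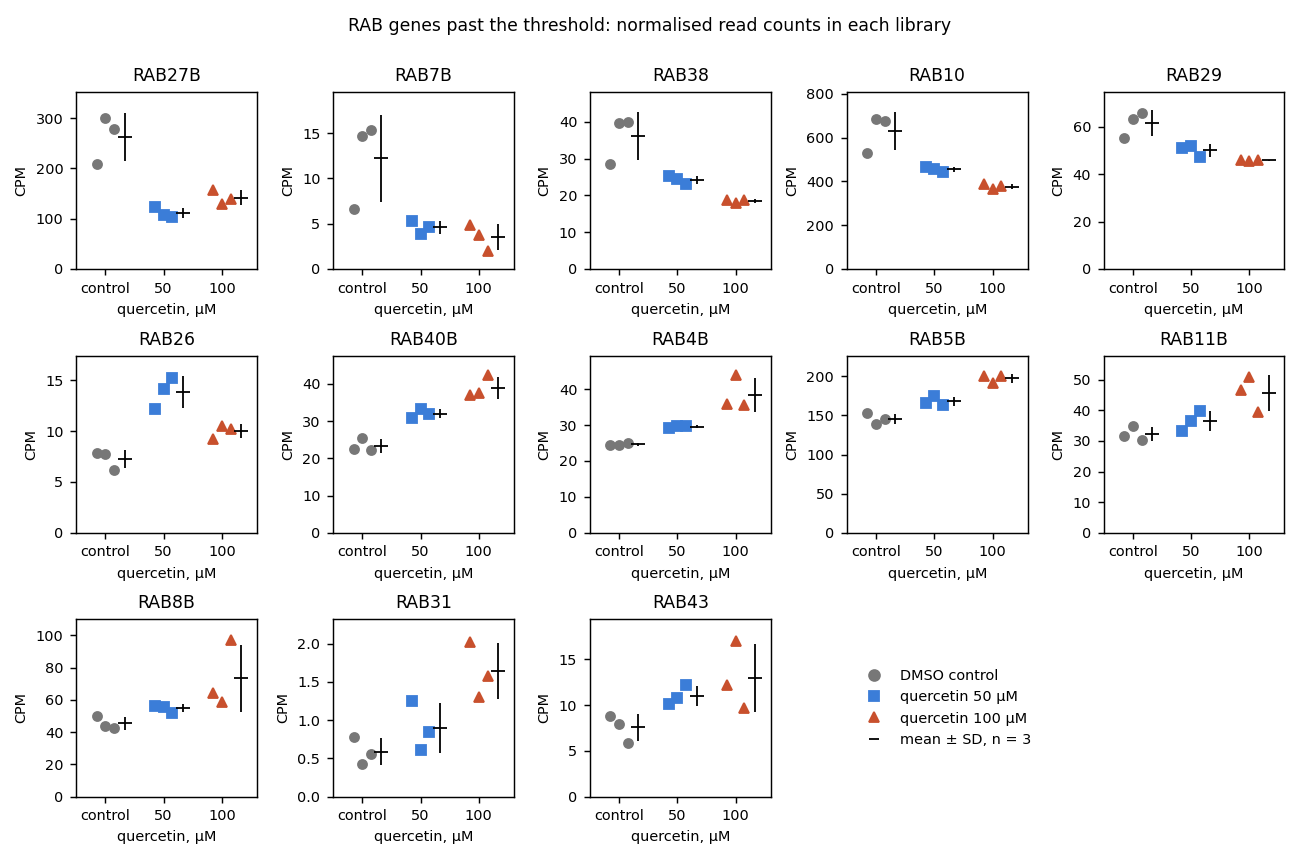
Normalised read count (CPM) in each of the 9 libraries for the 13 RAB genes past the threshold against control at 100 µM; points are libraries, and the bar beside each group is the mean ± SD (n = 3). The first row holds the 5 genes that were lower at 100 µM, and the other 8 were higher; RAB26 is highest at 50 µM, and RAB8B has a 100 µM library near 97.1 CPM.

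The 3 RAB genes assigned here to lysosome-related organelles had negative log2 differences at both doses. RAB27A, which also serves these organelles but is counted with the secretory genes, had 0.08 at 100 µM and 0.07 at 50 µM. Of the 3 assigned genes 2, RAB38 and RAB29, fell at 100 µM, beside 10.3% of all genes. RAB38, which with RAB32 delivers enzymes to melanosomes in pigment cells, had 28.5, 39.8 and 39.9 CPM in the control libraries, 25.1, 24.6 and 23.0 CPM at 50 µM and 18.8, 18.0 and 18.7 CPM at 100 µM. The groups did not overlap, the 100 µM libraries were lowest, and control replicate 1 was the lowest control. RAB38 was 1.95-fold lower at 100 µM (log2 -0.96 ± 0.13, edgeR adjusted p = 0.00155) and 1.49-fold lower at 50 µM (log2 -0.57 ± 0.13, edgeR adjusted p = 0.0230), a call at 50 µM lost in 6 of 17 alternatives. RAB29, which binds the kinase LRRK2 (chr1:205767986-205784732), had 55.3, 63.3 and 65.7 CPM in the control libraries, 50.9, 52.0 and 47.1 CPM at 50 µM and 46.1, 45.5 and 45.8 CPM at 100 µM. Its groups did not overlap either, with a log2 change of -0.42 ± 0.09 at 100 µM (edgeR adjusted p = 0.00897). At 50 µM RAB29 had a log2 difference of -0.30 ± 0.09 and did not pass (edgeR adjusted p = 0.0510), with -0.36 without control replicate 1 (edgeR adjusted p = 0.0152). RAB32 had -0.15 ± 0.11 at 100 µM and -0.09 ± 0.11 at 50 µM.

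In the late endosome, lysosome and autophagy class (8 tested), RAB7B was the only gene past the threshold, and it fell at both doses. RAB7B, which acts between late endosomes and the Golgi (chr1:205976740-206003470), had 6.66, 14.7 and 15.3 CPM in the control libraries, 5.28, 3.85 and 4.65 CPM at 50 µM and 4.85, 3.72 and 1.98 CPM at 100 µM. All quercetin libraries were lower than all controls, control replicate 1 was the lowest control, and the quercetin groups overlapped each other. RAB7B was 3.46-fold lower at 100 µM (log2 -1.79 ± 0.37, edgeR adjusted p = 0.00973) and 2.66-fold lower at 50 µM (log2 -1.41 ± 0.36, edgeR adjusted p = 0.0355), a call at 50 µM lost in 7 of 17 alternatives. With control replicate 1 and 100 µM replicate 3 left out, the log2 changes were -1.80 at 100 µM and -1.71 at 50 µM. RAB9A, which returns mannose 6-phosphate receptors to the Golgi, RAB12, RAB24 and RAB36 lay between -0.36 and -0.03 at 100 µM.

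The largest differences that did not pass were also in this class, at low counts. RAB42 had 0.730, 0.613 and 0.458 CPM in the control libraries, 1.06, 0.371 and 0.977 CPM at 50 µM and 0.895, 1.21 and 2.32 CPM at 100 µM, with the 100 µM libraries above the controls and 50 µM overlapping both. Its log2 difference at 100 µM was 1.28 ± 0.47 (edgeR adjusted p = 0.0811, 95% interval 0.13 to 2.43). RAB9B had 0.685, 0.518 and 0.712 CPM in the control libraries, 1.29, 1.62 and 1.12 CPM at 50 µM and 0.565, 0.744 and 1.09 CPM at 100 µM, with all 50 µM libraries above the controls and the 100 µM libraries overlapping them. Its log2 difference at 50 µM was 1.07 ± 0.32 (edgeR adjusted p = 0.0552, 95% interval 0.30 to 1.84). Without 100 µM replicate 3, a library of neither group in that comparison, the difference hardly moved (1.08, edgeR adjusted p = 0.0155).

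Of 7 RAB genes of early endosomes, RAB5B and RAB31 rose at 100 µM. At 50 µM edgeR called 0 of the 7, with 2 at an unadjusted p under 0.05 (beside 32.2% of all genes) and 2 by DESeq2 (beside 20.0%). RAB5B, a RAB5 protein that drives early endosome fusion (chr12:55973949-55996683), had 153, 139.5 and 145 CPM in the control libraries, 166, 174 and 163 CPM at 50 µM and 201, 191 and 200.5 CPM at 100 µM. The groups did not overlap and followed the dose. RAB5B was 1.35-fold higher at 100 µM (log2 0.44 ± 0.07, edgeR adjusted p = 0.00330), and its difference at 50 µM was 0.20 ± 0.07 (edgeR adjusted p = 0.0816). Without control replicate 1 the 50 µM difference was 0.24 (edgeR adjusted p = 0.0440). RAB31, which moves cargo from the Golgi to endosomes (chr18:9708187-9862551), was scarce, with 0.776, 0.424 and 0.559 CPM in the control libraries, 1.25, 0.603 and 0.838 CPM at 50 µM and 2.03, 1.30 and 1.58 CPM at 100 µM. The 100 µM libraries were above all others, and the 50 µM libraries overlapped the controls. RAB31 was 2.77-fold higher at 100 µM (log2 1.47 ± 0.36, edgeR adjusted p = 0.0191), and 0.49 on the scale of log2(TPM + 1), which shrinks differences of scarce genes.

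RAB20, which acts in phagosome maturation and is known as a target of hypoxia-inducible factors (HIF), did not pass. RAB20 had 8.76, 7.21 and 8.70 CPM in the control libraries, 8.54, 8.26 and 8.42 CPM at 50 µM and 10.3, 11.1 and 7.07 CPM at 100 µM, and 100 µM replicate 3 was below every control while the other 100 µM libraries were above. Its log2 difference at 100 µM was 0.21 ± 0.17 (edgeR adjusted p = 0.407), and 0.39 without that library (edgeR adjusted p = 0.0360). Of 26 other HIF targets tested, 21 rose at 100 µM, beside 10.7% of all genes. NDUFA4L2 (5.93 ± 0.89), CA9 (5.79 ± 0.72) and ANGPTL4 (3.14 ± 0.42) were the largest on the log2 scale. At 50 µM 9 of the 26 rose, beside 5.28% of all genes. A link of these genes to RAB20 was not tested. RAB5A, RAB5C, RAB21, which recycles integrins, and RAB22A had log2 differences between -0.15 and 0.14 at 100 µM and did not pass.

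Of 7 tested RAB genes of recycling endosomes, RAB4B and RAB11B rose at 100 µM. At 50 µM edgeR called 0 of the 7, with 1 at an unadjusted p under 0.05 (beside 32.2% of all genes) and 0 by DESeq2 (beside 20.0%). RAB4B, of the fast recycling route (chr19:40778247-40796942), had 24.4, 24.5 and 25.1 CPM in the control libraries, 29.2, 29.7 and 29.8 CPM at 50 µM and 35.9, 43.9 and 35.6 CPM at 100 µM. The groups did not overlap and followed the dose, and RAB4B was 1.56-fold higher at 100 µM (log2 0.64 ± 0.10, edgeR adjusted p = 0.00247). Of its exon bases 39.6% overlap annotated read-through transcripts or an antisense gene, and 59.5% of its 50-base stretches occur in other transcripts, so the RAB4B reads may include theirs. RAB11B, of the slow perinuclear recycling route (chr19:8390360-8407202), had 31.6, 34.8 and 30.4 CPM in the control libraries, 33.2, 36.5 and 39.7 CPM at 50 µM and 46.6, 51.1 and 39.4 CPM at 100 µM. The 100 µM libraries lay above the controls, and RAB11B was 1.42-fold higher (log2 0.50 ± 0.11, edgeR adjusted p = 0.0151). Of its exon bases 12.4% overlap the antisense gene RAB11B-AS1, whose reads cannot be told apart without the strand setting. RAB11A had 0.40 ± 0.14 and RAB4A 0.13 ± 0.09 at 100 µM, and RAB14, RAB15 and RAB35 lay between -0.15 and -0.07. Those 5 did not pass with edgeR, but DESeq2 called RAB11A (DESeq2 adjusted p = 0.0357).

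RAB genes of the endoplasmic reticulum and Golgi (11 tested) held 1 that rose at 100 µM. At 50 µM edgeR called 0 of the 11, with 2 at an unadjusted p under 0.05 (beside 32.2% of all genes) and 1 by DESeq2 (beside 20.0%). RAB43 (chr3:129087569-129122150) had 8.81, 7.96 and 5.90 CPM in the control libraries, 10.1, 10.7 and 12.2 CPM at 50 µM and 12.2, 17.1 and 9.68 CPM at 100 µM. All quercetin libraries lay above all controls, and the 100 µM libraries were the most spread. RAB43 was 1.72-fold higher at 100 µM (log2 0.78 ± 0.22, edgeR adjusted p = 0.0339), a call lost in 11 of 17 alternatives. It shares 79.3% of its exon bases with the read-through gene ISY1-RAB43, which the authors counted separately, so its value is uncertain. RAB1A and RAB1B, which carry vesicles into the Golgi, had log2 differences of 0.21 ± 0.08 and 0.20 ± 0.07 at 100 µM. Neither passed edgeR's test with all libraries, and both did without 100 µM replicate 3 (edgeR adjusted p = 0.0140 and 0.0222). DESeq2 called both with all libraries. RAB2A, RAB2B, RAB6A, RAB6B, RAB18, a GTPase of lipid droplets, RAB33B and RAB41 lay between 0.01 and 0.32. RAB30, a Golgi GTPase, had -0.84 ± 0.25 at 50 µM (edgeR adjusted p = 0.0555) and -0.45 ± 0.25 at 100 µM. Without control replicate 1 RAB30 had -1.06 at 50 µM (edgeR adjusted p = 0.0115) and -0.66 at 100 µM (edgeR adjusted p = 0.04995).

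RAB40 proteins carry a SOCS box and join ubiquitin ligases built on cullin 5. RAB40B (chr17:82654973-82698702) had 22.4, 25.5 and 22.2 CPM in the control libraries, 30.7, 33.2 and 32.0 CPM at 50 µM and 37.1, 37.5 and 42.2 CPM at 100 µM. The groups did not overlap and followed the dose. RAB40B was 1.67-fold higher at 100 µM (log2 0.74 ± 0.09, edgeR adjusted p = 0.00118) and 1.37-fold higher at 50 µM (log2 0.45 ± 0.09, edgeR adjusted p = 0.0185), a call at 50 µM lost in 6 of 17 alternatives. RAB40C had 0.54 ± 0.19 at 100 µM and did not pass (edgeR adjusted p = 0.0746). Of the cilium genes RAB23, RAB28 and RAB34 edgeR called 0 against control. At 100 µM 0 had an unadjusted p under 0.05 and DESeq2 called 0, and at 50 µM 1 had an unadjusted p under 0.05 and DESeq2 called 1. The shares of all genes were 36.6% and 26.4% at 100 µM, and 32.2% and 20.0% at 50 µM. The 3 cilium genes had log2 differences of -0.11, -0.05 and 0.11 at 100 µM, and -0.03, 0.38 and 0.33 at 50 µM. Without 100 µM replicate 3, a library of neither group there, RAB28 (0.39, edgeR adjusted p = 0.00322) and RAB34 (0.34, edgeR adjusted p = 0.0398) passed at 50 µM. RAB34 also passed there without control replicate 1 (0.50, edgeR adjusted p = 0.0281).

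Between the doses, 0 of the 52 RAB genes passed edgeR's test at 100 µM against 50 µM, beside 4.15% of all genes (2.25% higher and 1.89% lower). At an unadjusted p under 0.05 the count was 16 (30.8%, beside 22.0% of all genes), and DESeq2 called 5 of the 50 to which it gave an adjusted p (10.0%, beside 11.2% of all genes). Those 5 were RAB4B, RAB40B and RAB5B, higher at 100 µM, and RAB26 and RAB28, lower. In the authors' deposited comparison of the doses, 3 RAB genes had DESeq2 q-values under 0.05. They were RAB10 (0.00422) and RAB38 (0.0165), lower at 100 µM, and RAB5B (0.0458), higher. The share of all genes under that q-value was not counted. The groups did not overlap for 18 of the 52 (34.6%, beside 27.7%). RAB26 had a log2 difference of -0.47 ± 0.13 (edgeR adjusted p = 0.0805, 95% interval -0.80 to -0.14), with every 100 µM library below every 50 µM library. RAB42 had the largest difference that did not pass, 0.87 ± 0.45 (edgeR adjusted p = 0.300, 95% interval -0.24 to 1.99), and its groups overlapped. RAB28, linked to cilia of photoreceptors, had 14.6, 15.2 and 20.1 CPM at 100 µM and 22.7, 22.1 and 22.3 CPM at 50 µM, also without overlap (log2 -0.43 ± 0.12, edgeR adjusted p = 0.0782). Every 100 µM library of RAB27B lay above every 50 µM library (log2 0.35 ± 0.14, edgeR adjusted p = 0.173).

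The count between doses rested on the libraries that stand apart. Without 100 µM replicate 3, 13 of 53 RAB genes passed (27.5% of all genes did), 9 higher and 4 lower at 100 µM. They included RAB7A (0.37, edgeR adjusted p = 0.0286), RAB37 (1.09, edgeR adjusted p = 3.55e-04), RAB3B (0.60, edgeR adjusted p = 0.00220) and RAB28 (-0.59, edgeR adjusted p = 0.00122), chosen here after their values were seen. Without control replicate 1, a library of neither dose, the count was 2 (6.24% of all genes), RAB10 and RAB38, both lower at 100 µM. Without both libraries it was 28 of 54 (47.3% of all genes).

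Genes that share a number are paralogues, and their balance can be read within a library. RAB27B made up 73.1, 81.1 and 81.3% of the RAB27A and RAB27B TPM in the control libraries, 64.2, 58.7 and 56.6% at 50 µM and 68.3, 67.8 and 62.7% at 100 µM. All quercetin libraries lay below all controls. The log2 ratio of RAB7B to RAB7A was -5.83, -5.27 and -5.19 in control, -6.50, -6.63 and -6.56 at 50 µM and -6.91, -7.36 and -7.91 at 100 µM, again without overlap. RAB8B made up 29.1, 26.1 and 23.7% of RAB8A and RAB8B in control, 35.6, 34.4 and 34.5% at 50 µM and 36.1, 33.3 and 53.6% at 100 µM, so that RAB8B exceeded RAB8A only in 100 µM replicate 3. RAB5B made up 62.7, 61.5 and 62.6% of RAB5A and RAB5B in control, 63.1, 63.7 and 63.8% at 50 µM and 68.0, 68.7 and 64.5% at 100 µM. The log2 ratio of RAB4B to RAB4A was 0.38, 0.55 and 0.61 in control, 0.56, 0.69 and 0.59 at 50 µM and 0.82, 1.18 and 1.06 at 100 µM, and only the 100 µM libraries stood clear of the controls. The RAB11B to RAB11A ratio overlapped between all groups, and 100 µM replicate 3 had the lowest value (-1.18 on the log2 scale). Ratios show unequal change within a pair and were chosen after values were seen, so no test is given. There were 16 such ratios, and each one shown holds a gene past the threshold at 100 µM, so it partly restates that call.

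**Figure D4:**
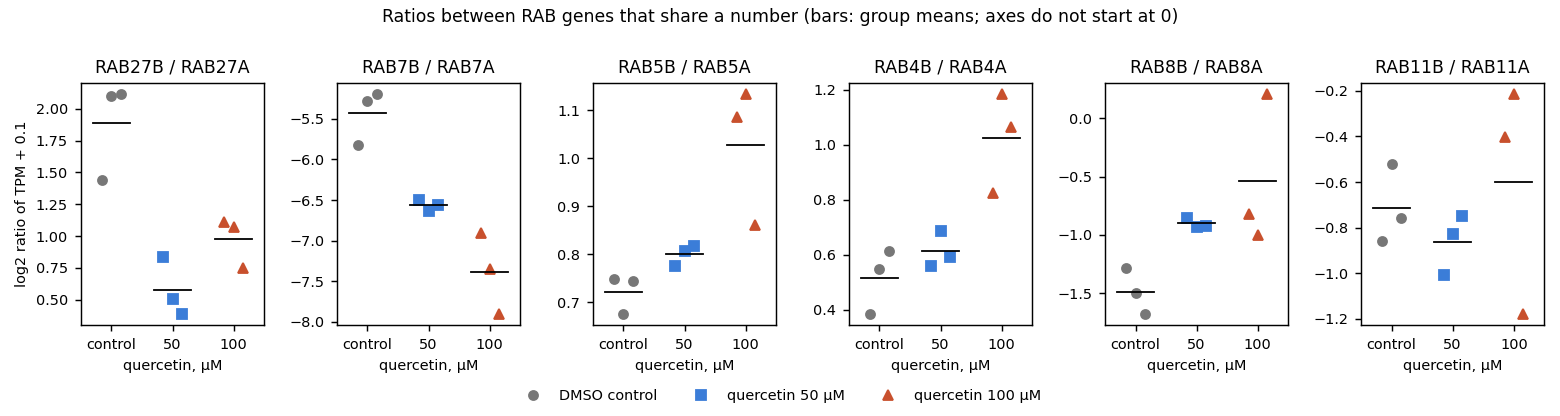
Log2 ratio of TPM + 0.1 between RAB genes that share a number, in each of the 9 libraries (points) with group means (bars); axes do not start at 0. RAB27B to RAB27A and RAB7B to RAB7A are lower in all quercetin libraries than in all controls, RAB8B to RAB8A is higher, and RAB11B to RAB11A overlaps.

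Regulators of the RAB cycle were counted from lists of known members. The shares among all genes to read them against are 10.7% up and 10.3% down at 100 µM, and 5.28% up and 6.31% down at 50 µM. Of 45 RAB GEFs tested, 1 rose and 4 fell at 100 µM, and 4 fell at 50 µM. RAB3IL1, a GEF of RAB3A, had 17.4 ± 1.64 CPM at 100 µM and 27.3 ± 7.25 CPM in control (SD, n = 3; log2 -0.65 ± 0.18). RIN1, a GEF of RAB5, fell by a log2 of 0.55 ± 0.12, and DENND5A rose (0.46 ± 0.09). Of 36 GAPs, 5 rose and 1 fell at 100 µM, and 2 rose and 2 fell at 50 µM. TBC1D14, which binds RAB11 and limits autophagy, fell to 91.0 ± 5.14 CPM at 100 µM, against 143 ± 5.95 CPM in control (log2 -0.65 ± 0.08). TBC1D17 rose (0.62 ± 0.09), and TBC1D8B rose with wide spread (37.3 ± 20.8 CPM at 100 µM and 17.8 ± 4.08 CPM in control).

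Of 14 genes of prenylation, GDP dissociation inhibition and membrane delivery, 4 rose at 100 µM. At 50 µM edgeR called 0 of the 14, with 2 at an unadjusted p under 0.05 (32.2% of all genes) and 2 by DESeq2 (20.0%). The 3 with the largest change were YIPF2 (0.86 ± 0.26), RABAC1 (0.63 ± 0.19) and YIPF3 (0.48 ± 0.09), membrane proteins that bind RAB proteins, all on the log2 scale. Of 53 effectors, 7 rose and 7 fell at 100 µM (21.0% of all genes passed), and 2 rose and 7 fell at 50 µM (11.6%). The median log2 fold change at 100 µM was -0.01 for the GEFs, -0.02 for the GAPs, 0.35 for the cycle genes and -0.05 for the effectors. RAB11FIP2, a RAB11 effector, fell (-0.69 ± 0.13) and RAB11FIP4, another, rose (0.65 ± 0.19). SYTL5, a RAB27 effector, rose to 25.0 ± 13.5 CPM at 100 µM and 24.1 ± 0.677 CPM at 50 µM, against 7.32 ± 3.99 CPM in control. Other RAB27 effectors, chosen after their values were seen, were UNC13D, which primes vesicles (log2 -0.54 ± 0.16 at 100 µM and -1.21 ± 0.17 at 50 µM), and SYTL4, a docking protein (-0.28 ± 0.08 and -0.29 ± 0.08), both of which fell at both doses.

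Of 9 exocyst subunits, which tether vesicles at the plasma membrane, only EXOC2 passed at 100 µM (-0.29 ± 0.09), and edgeR called 0 of 10 subunits of the HOPS and CORVET tethers, with 2 at an unadjusted p under 0.05 (36.6% of all genes) and 1 by DESeq2 (26.4%). Of 28 lysosomal genes, 4 rose and 2 fell at 100 µM, with GAA (1.38 ± 0.28), CTSL (-0.73 ± 0.09) and ATP6V1A (-0.49 ± 0.13) the largest. Of 10 RAB-like genes and RAN, 1 rose and 1 fell at 100 µM, RABL6 (0.31 ± 0.07) and RAN (-0.28 ± 0.07), the GTPase of nuclear transport.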

How the data were processed

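RNA sequencing libraries of HCCLM3 cells were read from the authors' gene table. Its expected counts (reads assigned to each gene by an estimate, so not always whole) were deposited by the authors with no scaling. The same table holds TPM per library from the authors, and the log2 fold changes and q-values of their own comparisons, which came from DESeq2 per the file headers. The submitters' processing notes name HISAT2 2.0.4, Bowtie2 2.2.5, RSEM 1.2.12 and the build GRCh38.p13, with no roles stated. Per the labels' protocols RNA was bound to oligo(dT) beads, so transcripts without a poly(A) tail are depleted, and libraries had a DSN treatment. The protocol speaks of tissue, although the samples are a cell line. Gene positions are those of the authors' table, 1-based, and RAB38 has no chromosome there.

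Expected counts were rounded and filtered with filterByExpr (minimum count 10, total 15, share 0.7; 12832 of 17492 genes kept, 0.042% of counts removed). They were scaled by TMM and tested in 1 fit over all 9 libraries with edgeR 4.0.16 (robust glmQLFit, two-sided glmQLFTest; R 4.3.3). The p-values were adjusted by Benjamini-Hochberg over the genes tested. Standard errors are the size of the log2 fold change over the root of the F statistic, and 95% intervals use 6 residual degrees of freedom. The biological coefficient of variation was 14.4%, and a log2 fold change at 100 µM had a median standard error of 0.134. Alternatives were DESeq2 1.42.0, limma 3.58.1 on log2(TPM + 1) and log2(TPM + 0.1), RLE scaling, no filter, 2-group fits, a replicate block, and fits without each library or without both that stand apart. The edgeR procedure was tested on simulated data in which no library stood apart. That test does not cover the effect of the libraries that stand apart here.

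Values per library are given for RAB genes past the threshold in any comparison (up to 16, mean of at least 1 CPM), the 4 with the highest mean TPM, the largest difference not past the threshold in each comparison, and RAB20 and RAB27A. From each pathway list up to 3 called members with the largest change at 100 µM are named. The members, lists and alternatives were chosen with earlier results of these data known, and the ratios, motifs, RAB28 and RAB27 effectors after values were seen. Shared exon bases and 50-base stretches were counted in GENCODE v29. Some genes of the lists, and the families of other small GTPases that hold them, are not reported here.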

Additional observations from a re-analysis of the deposited data

How the results depend on the processing

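Of 19 calls of RAB genes against control, 0 changed direction in 17 alternatives and 8 kept their side of the threshold in all: RAB10, RAB27B, RAB38, RAB40B, RAB4B, RAB5B and RAB7B at 100 µM and RAB27B at 50 µM. RAB10, RAB38 and RAB40B at 50 µM were each lost in 6, and RAB7B at 50 µM in 7. At 100 µM RAB26 was lost in 12, RAB43 in 11, RAB11B, RAB31 and RAB8B in 3 each and RAB29 in 1, and RAB26 at 50 µM was lost in 1. Of RAB genes against control at 100 µM (13), leaving out a library gave 7 to 18, and leaving out both libraries that stand apart 25. At 50 µM (6), the counts were 11 with DESeq2, 19 in the fit of the 2 groups alone, 1 to 21 without a library and 32 without both. Between the doses (0), they were 5 with DESeq2, 0 to 13 without a library and 28 without both. Of all genes at 100 µM (2692), the counts were 1024 in the fit of the 2 groups, 1055 to 3856 without a library and 6272 without both. At 50 µM (1488), they were 2567 with DESeq2, 4269 with the 2 groups, 90 to 4739 without a library and 7398 without both. Between the doses (532), they were 1382 with DESeq2, 251 with the 2 groups, 43 to 3561 without a library and 6105 without both. The cause was not tested.

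Whether the replicate numbers pair the samples could not be decided. Of 9 same-number pairs 2 correlated above 0.1 in their deviations from the group means (-0.52 to 0.35). Of the libraries, 0 correlated best with their own number in both other groups. Control replicate 1 and 100 µM replicate 3, which stand apart, correlated at 0.57 with each other. Their large deviations can hide a weaker pairing. With the replicate block 11 RAB genes passed at 100 µM, 2 at 50 µM and 0 between the doses, and of all genes 1672 (13.03%), 427 (3.33%) and 109 (0.849%). At 100 µM the standard error was largest for RAB3A (0.56), RAB42 (0.47) and RAB41 (0.45), all with low counts, and 0.39 for RAB37, whose counts were higher; the part of depth in this was not tested.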
